A study of Homo sapiens with 28 samples.

Results

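The cytosolic ribosomal protein genes are the 77 genes whose symbols name a protein of the cytosolic ribosome, 46 of the large subunit (RPL genes and the stalk proteins RPLP0, RPLP1 and RPLP2) and 31 of the small subunit (RPS genes and RPSA). They were taken by symbol from the 58278 gene rows of the count table, by a rule that does not use how they responded. The rule and the gene lists used below were set with earlier results of these data known. All 77 reached 10 counts in at least 3 libraries, and all 77 were tested in every comparison. FAU, whose product is a ribosomal protein fused to a ubiquitin-like protein, fell outside the symbol rule and is given with the other translation genes. The RNA came from HCT116, a human colorectal carcinoma line, grown as subcutaneous xenografts that carried luciferase and GFP in male NOD SCID mice. Tumor-bearing mice had received vehicle (Control, 3 tumors), the CDK4/6 inhibitor Palbociclib (5 tumors), the glutaminase inhibitor Telaglenastat (4 tumors, spelled Telaglenestat in the labels) or both drugs (4 tumors, here the combination) by daily gavage. The tumors sequenced were what remained at resection. A further 12 libraries came from cell lines set up from excised tumors of the same 4 treatments and grown without drug, 3 lines a treatment, and no source used here says which tumor gave which line. NOD SCID mice lack functional T and B cells but keep other stroma, so tumor RNA can hold mouse reads.

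A ribosome is built from a small subunit, which binds the mRNA and reads its codons, and a large subunit, which joins the amino acids. Most ribosomal proteins are needed in equal amounts, and the mRNAs are among the most abundant in a dividing cell. Most of them begin with a terminal oligopyrimidine (TOP) motif, a cytidine followed by a run of pyrimidines, through which mTORC1 and the LARP1 protein control their translation and stability. Several of the genes are mutated in Diamond-Blackfan anemia, and RPL5 and RPL11, with 5S rRNA, bind MDM2 when ribosome assembly is disturbed.

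The starts of the transcripts are shown because they are what these mRNAs share in sequence. In the RefSeq promoter windows (GRCh38.p14), 62 of the 77 genes had an entry. A C followed by pyrimidines, at least 5 bases in all from the annotated start and read on the transcribed strand only, was found in 46 of the 62 (74.2%). The share was 73.7% for the large subunit and 75% for the small subunit, against 5.14% of all 27305 genes in the windows and 8.7% of 69 mitochondrial ribosomal protein genes. Among those 46 the run had a median length of 8 bases and a longest of 19. The 10 windows below hold 10 bases before the start and 20 from it, with the pyrimidine run at the start in capitals. The first 5 are among the genes that fell most in Telaglenastat tumors and the last 5 among those that rose most, all with a single annotated start.
RPS9: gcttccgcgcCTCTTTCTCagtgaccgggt
RPS15: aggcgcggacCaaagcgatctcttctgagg
RPL36: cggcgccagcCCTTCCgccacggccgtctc
RPL28: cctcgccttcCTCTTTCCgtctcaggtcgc
RPL35: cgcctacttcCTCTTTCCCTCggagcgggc
RPL21: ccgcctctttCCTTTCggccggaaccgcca
RPS3A: cccacttccgCCCTTTTggctctctgacca
RPL22: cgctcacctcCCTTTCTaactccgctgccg
RPL9: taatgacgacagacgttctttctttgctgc
RPS24: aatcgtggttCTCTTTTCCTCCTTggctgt
The windows lie at chr19:54200848-54200877 (plus strand) for RPS9, chr19:1438386-1438415 (plus) for RPS15, chr19:5690285-5690314 (plus) for RPL36, chr19:55385922-55385951 (plus) for RPL28 and chr9:124861938-124861967 (minus) for RPL35. They lie at chr13:27251548-27251577 (plus) for RPL21, chr4:151099618-151099647 (plus) for RPS3A, chr1:6199576-6199605 (minus) for RPL22, chr4:39458903-39458932 (minus) for RPL9 and chr10:78033853-78033882 (plus) for RPS24. The motif was present among the genes of either direction: 26 of 35 genes lower in Telaglenastat tumors and 8 of 9 higher genes with an entry carried it, as did 12 of 18 genes that were not called. At the annotated starts of RPS15 and RPL9 the run was shorter than 5 bases.

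Libraries held 6273834 to 10617936 counted reads in tumors and 7198540 to 13815675 in cultures. Levels are given as CPM, the count of a gene divided by the size of its library and scaled with edgeR's TMM factors, and differences as log2 fold changes ± SE. A gene is called where its Benjamini-Hochberg adjusted p in edgeR's quasi-likelihood test over all genes was under 0.05, and it was then said to rise or fall. Tumors came from separate animals and cultures were separate lines, so the p-values measure the spread between animals or between lines. Of 12 markers of an epithelial line, 7 were over 1 CPM in tumors and 8 in cultures. Their sum was 3060 to 3536 CPM in Control tumors, 3024 to 4477 in Palbociclib, 1589 to 1773 in Telaglenastat and 2339 to 2535 in combination tumors, and 1313 to 2538 in cultures. Markers of stroma and blood were counted on human gene rows, though the host of these tumors was a mouse. They summed to 212.9 to 255 CPM in Control and 146.4 to 252.3 in Palbociclib tumors. The sums were 64.51 to 86.02 in Telaglenastat tumors, 122.9 to 168.6 in combination tumors and 9.367 to 27.41 in cultures. Of these 26 markers, 11 had a median over 1 CPM in tumors and 9 had a median of 0. COL1A1 (median 64.9 CPM), COL3A1 (31.1) and COL1A2 (17) were the highest in tumors, while LUM, CDH5 and HBB were at 0 in all 16 tumors. The epithelial and the stroma sums were both lowest in Telaglenastat tumors, and the part of either in the results was not tested. Fewer cells of a type and less RNA per cell cannot be told apart in these bulk libraries. Whether the stroma and blood counts were mouse reads placed on human genes was not tested. Libraries also differed in how reads depended on GC content, which is given beside the results. Palbociclib tumor replicate 2 and Control culture replicate 2 stood apart from their groups in this, and the 3 Telaglenastat cultures stood apart from each other. The chi-square of counts over genes, per degree of freedom, was 35.7 to 46.5 between Telaglenastat cultures and 4.62 to 10.6 between cultures of each other group.

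The ribosomal protein genes together took 4.868% to 7.452% of the counted reads of a library. In Control tumors the share was 6.207%, 6.641% and 6.699% (6.52% ± 0.269, SD, n = 3), and in Palbociclib tumors it was 6.384%, 6.891%, 7.447%, 7.114% and 7.329% (7.03% ± 0.42, n = 5). In Telaglenastat tumors it was 4.868%, 5.436%, 5.296% and 5.099% (5.18% ± 0.247, n = 4), and in combination tumors 5.525%, 6.383%, 6.485% and 6.178% (6.14% ± 0.431, n = 4). All 4 Telaglenastat tumors lay below all other tumors, while the Palbociclib and combination ranges overlapped the Control range. Cultures gave 5.23% ± 0.23 (Control), 5.19% ± 0.293 (Palbociclib), 6.75% ± 0.608 (Telaglenastat) and 5.09% ± 0.281 (combination), n = 3 each. There the 3 Telaglenastat lines, at 6.364%, 6.437% and 7.452%, lay above the other 9. The widest 95% Wilson interval of a library's share was 0.0408 percentage points, for counting error only, and was far narrower than the spread between libraries. No test was run on these shares.

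**Figure D1:**
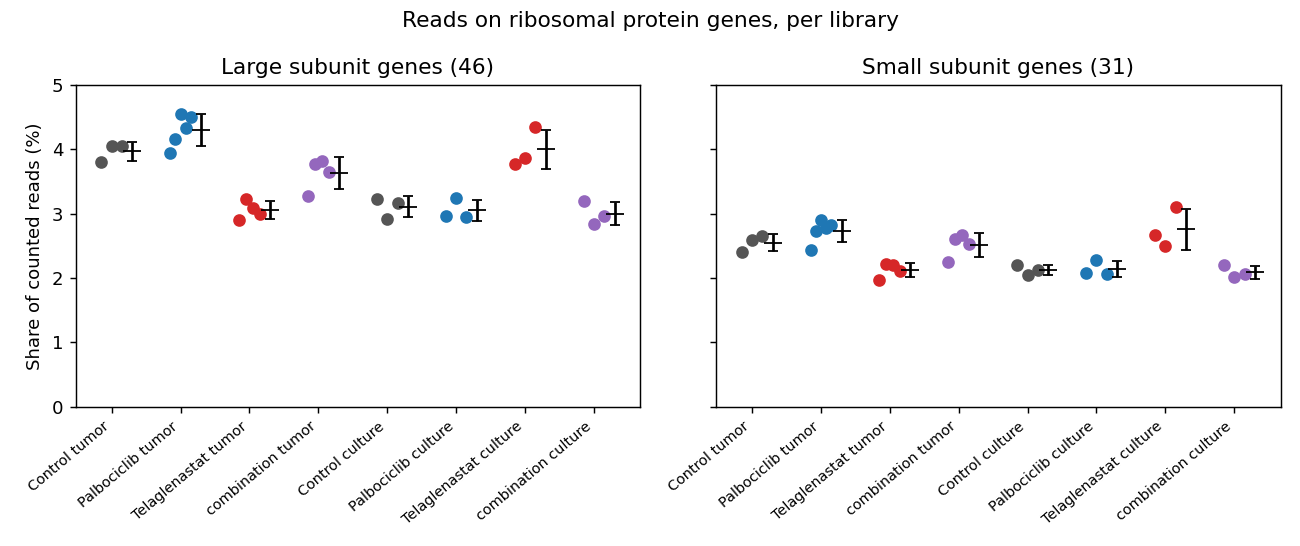
Share of counted reads (%, vertical axis) on large subunit genes (left) and small subunit genes (right) in each library, by condition, with the mean and SD beside the points. Telaglenastat tumors sit lowest among tumors (large subunit 3.05% ± 0.139, small subunit 2.12% ± 0.115), and Telaglenastat cultures sit highest among cultures.

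With protein-coding nuclear genes alone as the denominator, the Control mean was 7.19% and the combination mean 7.36%, so the order of these means turned, by less than the spread between combination tumors (SD 0.495). Over all counted reads both subunits had their lowest tumor shares under Telaglenastat and their highest under Palbociclib. The large subunit genes took 3.97% ± 0.143 of the reads in Control tumors, 4.3% ± 0.253 in Palbociclib, 3.05% ± 0.139 in Telaglenastat and 3.63% ± 0.246 in combination tumors. The small subunit genes took 2.55% ± 0.129, 2.73% ± 0.174, 2.12% ± 0.115 and 2.51% ± 0.186 in the same order. The ratio of large to small subunit reads averaged 1.557, 1.573, 1.438 and 1.447 in these tumors and 1.425 to 1.462 in the culture groups. Per kilobase of coding sequence, the highest levels in Control tumors were those of RPL41 (19800 ± 1829 CPM per kb), RPS18 (3891 ± 406) and RPL39 (3328 ± 138). RPL41 encodes a very short protein of 75 coding bases, without the stop codon, and reads on its UTRs raise this value. RPS28 (184.5 CPM per kb) and RPS15 (259.5) were the lowest, so the mRNA levels spread widely. Pseudogene rows took 45% of the reads summed over RPS28 and its pseudogenes, so its level is uncertain.

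Few ribosomal protein genes were called in Palbociclib tumors against Control tumors. Of the 77 genes, 5 rose, where 2.55% of all 14848 genes tested did, and 0 fell, where 3.6% of all genes did. The median difference was 0.19 on the log2 scale against 0.00067 over all genes, and 75 of the 77 genes were above 0. At an unadjusted p under 0.05, 36 of the genes were higher, against 8.78% of all genes. The genes that rose included RPL11, RPL26, RPL12 and RPL37, all of the large subunit.

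RPL11 (ENSG00000142676.12, hg38 chr1:23691742-23696835, plus strand) encodes the large subunit protein that carries 5S rRNA with RPL5. It stood at 785.2, 864.2 and 892.8 CPM in Control tumors and at 999.2, 1276, 1098, 1015 and 1016 CPM in Palbociclib tumors. Every Palbociclib tumor was above every Control tumor, a rise of 0.36 ± 0.08 (adjusted p = 0.00987). RPL26, a protein at the exit tunnel, read 809.6, 924 and 982.7 CPM in Control and 945, 1406, 1150, 1144 and 1104 CPM in Palbociclib tumors. The groups overlapped at 1 Palbociclib tumor, and the rise was 0.35 ± 0.10 (adjusted p = 0.0462). RPL12, a protein at the base of the stalk, was at 989.6, 1068 and 1008 CPM in Control and at 1219, 1191, 1339, 1236 and 1288 CPM in Palbociclib tumors. These groups did not overlap (0.30 ± 0.07, adjusted p = 0.00991). RPL5 itself differed by 0.16 ± 0.07 and did not pass (adjusted p = 0.239).

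The size of this group of 5 turned on single libraries and on the scaling. The count was 22 without Palbociclib tumor replicate 1, 10 without combination tumor replicate 1, 6 without Palbociclib tumor replicate 2 and 0 without Control tumor replicate 1, and 2 to 4 without any other tumor, always as rises. Of all genes 2.52% rose without Palbociclib tumor replicate 1 and 1.26% without Control tumor replicate 1. With a smooth trend in GC content and coding length removed from each library, 15 rose and 0 fell, where 3.41% and 3.83% of all genes did. Across the 77 genes the Spearman correlation of the log2 fold change with GC content was -0.433 before this step and -0.572 after it.

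Telaglenastat tumors differed from Control tumors in most ribosomal protein genes, and most of those fell. Of the 77 genes, 44 fell and 10 rose, where 28.5% of all genes fell and 22.6% rose. The median difference was -0.39 against 0.03 over all genes. The large subunit had 26 lower and 7 higher genes (median -0.38), and the small subunit 18 lower and 3 higher (median -0.43). In 45 genes every Telaglenastat tumor was below every Control tumor, against 29.6% of all genes, and in 16 every one was above, against 24.2%.

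RPS9 (ENSG00000170889.13, hg38 chr19:54200742-54249003, plus strand), a small subunit protein beside the mRNA channel, fell most. It read 260.6, 293.8 and 302.7 CPM in Control tumors and 58.21, 58.47, 53.57 and 52.71 CPM in Telaglenastat tumors. The groups lay far apart (-2.46 ± 0.14, adjusted p = 1.33e-09). RPL8, a protein next to the peptidyl transferase center, was at 670.4, 767.9 and 764 CPM in Control and at 175.9, 176.7, 138.2 and 161.3 CPM in Telaglenastat tumors, and fell by 2.28 ± 0.14 (adjusted p = 2.61e-09). RPS15 (ENSG00000115268.9, hg38 chr19:1438358-1440494, plus strand), whose tail reaches the decoding site, was at 111.2, 119.3 and 108.2 CPM in Control and at 27.3, 30, 20.05 and 25.98 CPM in Telaglenastat tumors (-2.23 ± 0.20, adjusted p = 3.61e-08). No Telaglenastat tumor came near the Control range in any of these 3 genes. RPL36 (-2.18 ± 0.18, adjusted p = 2.32e-08) and RPL28 (-1.92 ± 0.13, adjusted p = 4.29e-09), both large subunit proteins, and RPS19 (-1.78 ± 0.14, adjusted p = 9.11e-09), the gene most often mutated in Diamond-Blackfan anemia, fell too.

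**Figure D2:**
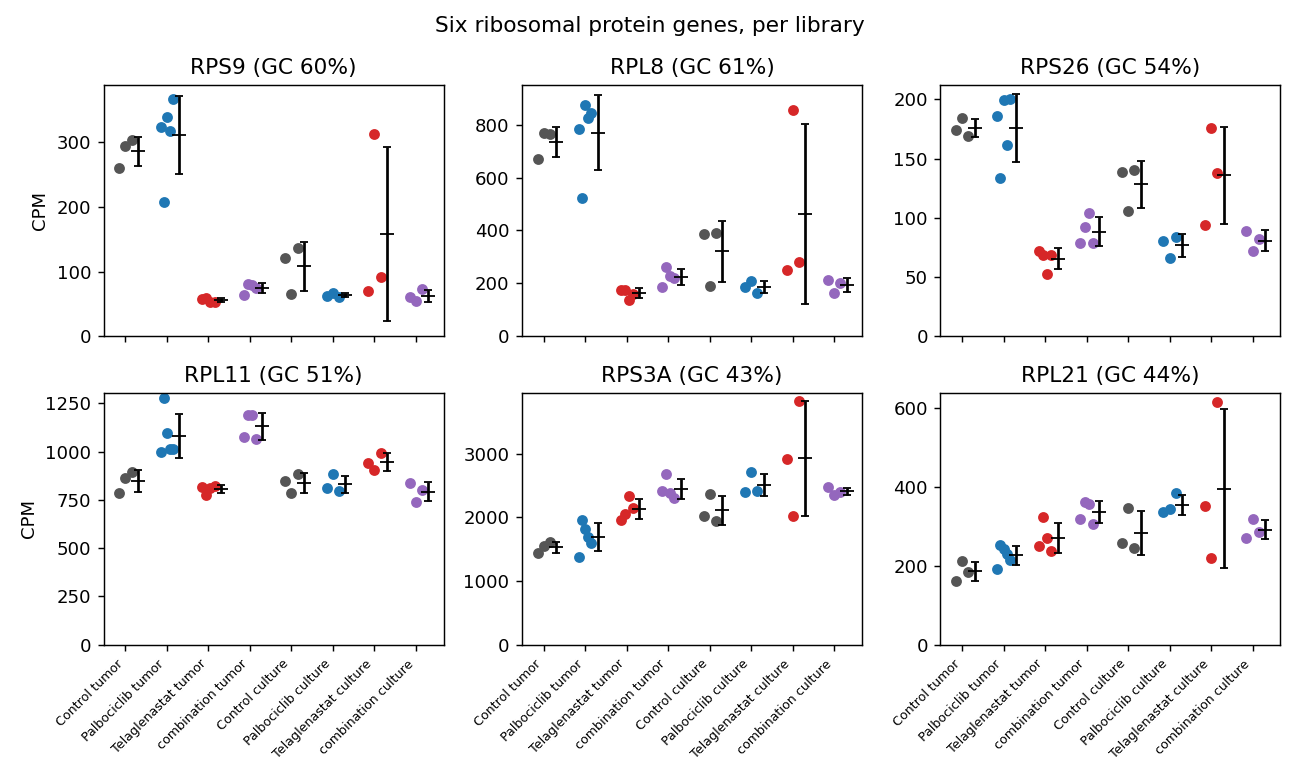
CPM in each library (vertical axis, linear from 0) of 6 ribosomal protein genes by condition, with mean and SD beside the points and the GC content of the coding sequence in each title. RPS9, RPL8 and RPS26 were low in Telaglenastat and combination tumors, RPL11 was high in Palbociclib and combination tumors, and RPS3A and RPL21 had their highest tumor means in the combination group. In cultures the Telaglenastat lines are the most spread, with 1 line high in RPS9 and RPL8.

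In the counts by role that follow, the shares over all genes are those given above, 28.5% lower and 22.6% higher. Of all 77 ribosomal protein genes 44 fell and 10 rose. The counts by role are without a correction for GC content, with which direction went as given below. The stalk proteins, which recruit the translation factors with GTPase activity, all fell in Telaglenastat tumors. RPLP0 read 2227, 2611 and 2380 CPM in Control and 1077, 1179, 1026 and 1088 CPM in Telaglenastat tumors (-1.25 ± 0.10, adjusted p = 1.21e-08). RPLP1 fell by 1.34 ± 0.12 (adjusted p = 3.14e-08) and RPLP2 fell by 1.72 ± 0.16 (adjusted p = 4.23e-08). The 3 proteins listed at the peptidyl transferase center all fell as well, as did 7 of the 8 listed along the mRNA channel, where none rose. Of 9 genes at the exit tunnel, 3 fell and 2 rose, near those shares. Neither of the 5S rRNA partners was called: RPL5 differed by 0.16 ± 0.08 (adjusted p = 0.0875) and RPL11 by -0.18 ± 0.08 (adjusted p = 0.079). RPSA, the laminin receptor protein on the outer face of the small subunit, fell by 0.54 ± 0.07 (adjusted p = 6.57e-06). Of 17 genes linked to Diamond-Blackfan anemia on the list used, 8 fell and 2 rose.

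The 10 genes that rose were RPL7, RPL9, RPL21, RPL22, RPL26, RPL34, RPL36A, RPS3A, RPS24 and RPS27A. RPL7, a large subunit protein, read 1497, 1570 and 1699 CPM in Control and 2313, 2235, 2462 and 2275 CPM in Telaglenastat tumors, without overlap (0.44 ± 0.10, adjusted p = 0.00122). RPL21 was at 162, 211.4 and 183.8 CPM in Control and at 249.9, 324.3, 269.6 and 237.7 CPM in Telaglenastat tumors (0.43 ± 0.11, adjusted p = 0.00349). RPS3A, a small subunit protein near the mRNA exit, was at 1434, 1548 and 1608 CPM and at 1962, 2060, 2333 and 2151 CPM (0.37 ± 0.10, adjusted p = 0.00375). In each of the 3 the lowest Telaglenastat tumor exceeded the highest Control tumor. Pseudogene rows took 42.7% of the reads summed over RPL21 and its pseudogenes and 36.4% for RPL9, and RPL36A shares exons with a readthrough gene, so these 3 are uncertain.

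Direction followed the GC content of the coding sequence. Over the 77 genes GC content ran from 42.48% to 62.99% with a median of 51.61%. Among the 39 genes at or below the median, 9 fell and 10 rose (median 0.12), and among the 38 above it, 35 fell and 0 rose (median -0.99). Across the 77 genes the Spearman correlation of the log2 fold change with GC content was -0.89, and over all genes it was -0.72. The genes share the same libraries, and are not independent replicates. For the GC slope of a library, each ribosomal protein gene's log2 level was taken as its difference from its mean over all tumors. Per 10 points of GC content this difference changed by 0.587 to 0.609 in the 3 Control tumors. In the 4 Telaglenastat tumors it changed by -0.72 to -0.496, so these groups did not overlap. The slopes are relative to the other tumors, and their signs do not give an absolute dependence on GC content. What set the slope of a library was not tested.

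With the trend of all other genes in GC content and length removed, 44 of the 77 genes fell and 2 rose, where 12.5% and 11.8% of all genes did, and the median was -0.31. RPS9 then differed by -1.48, RPL8 by -1.29 and RPS15 by -1.09, so a part of the fall was lost and all 3 stayed past the threshold. None of the 10 risers remained past it: RPL7 differed by 0.12 (adjusted p = 0.272) and RPS3A by 0.02 (adjusted p = 0.885). The 2 that rose were RPS14 (0.37, adjusted p = 0.000572), which had fallen by 0.20 before, and RPS2 (0.21, adjusted p = 0.0298), which had fallen by 0.82. The correlation with GC content across the genes was still -0.50.

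**Figure D3:**
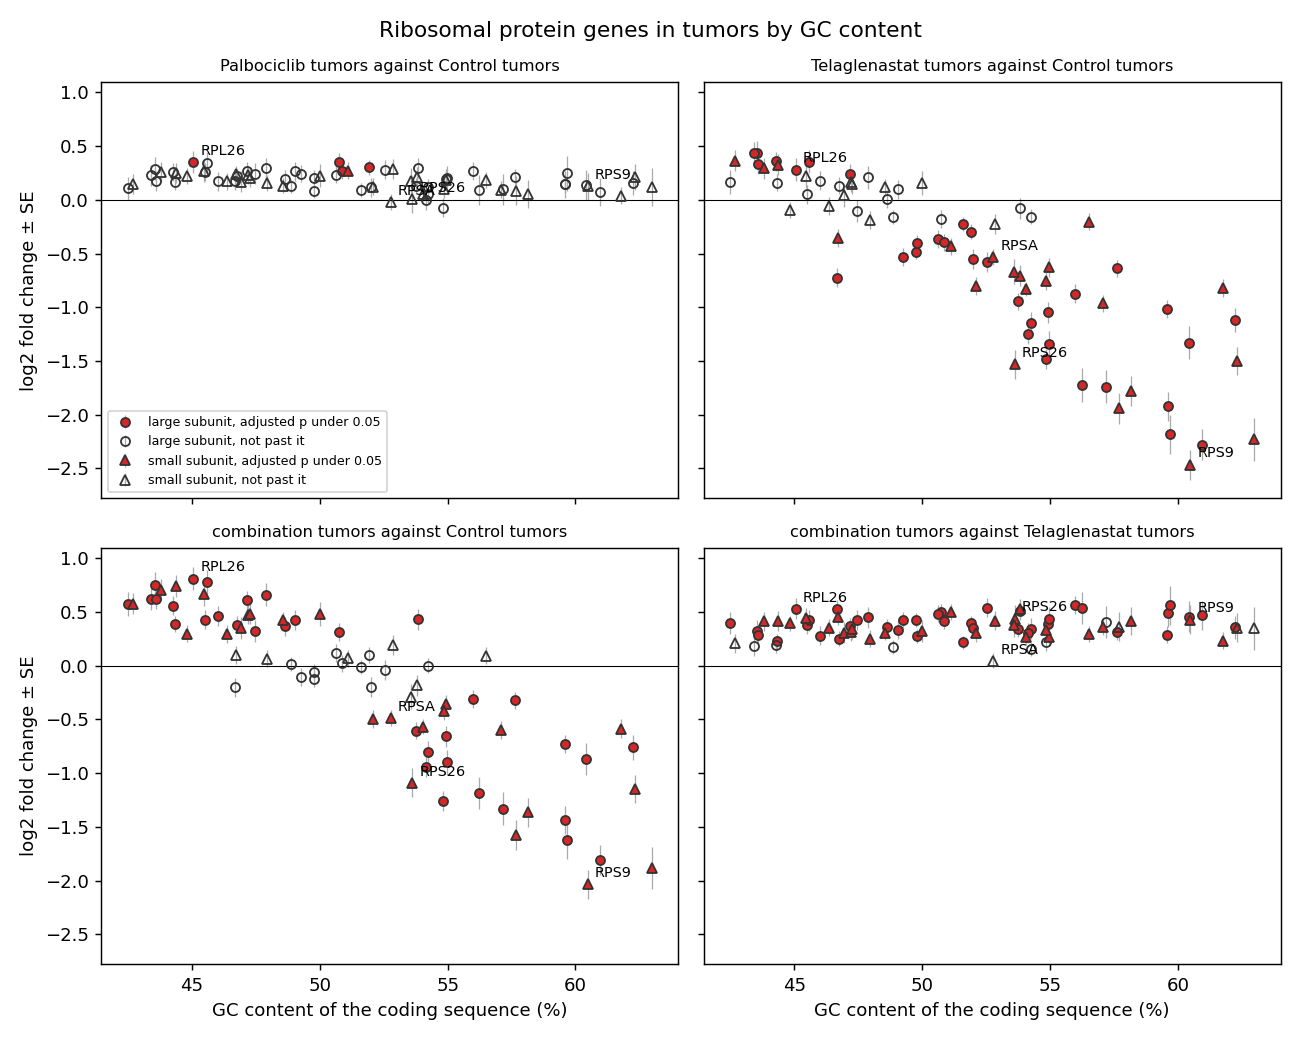
Log2 fold change with SE (vertical axis) of each ribosomal protein gene against the GC content of its coding sequence (%, horizontal axis) in 4 comparisons of tumors, with circles for the large and triangles for the small subunit and filled marks past an adjusted p of 0.05. The points fall with GC content in the Telaglenastat and combination tumors against Control (Spearman -0.89 and -0.88), and lie in a band above 0 for the combination against Telaglenastat.

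RPS26 departed from the genes near it in GC content. This small subunit protein lies at the mRNA exit and is mutated in Diamond-Blackfan anemia, and its coding sequence has 53.6% GC. It read 174, 184.5 and 169.1 CPM in Control and 71.79, 68.94, 52.63 and 68.93 CPM in Telaglenastat tumors, and fell by 1.53 ± 0.13 (adjusted p = 3.47e-08). With the trend removed it still differed by -1.26, close to RPL8 and RPS9. RPS26 was singled out after its values were seen.

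In combination tumors the ribosomal protein genes split evenly against Control. Of the 77 genes 29 fell and 29 rose, where 26.9% and 17.6% of all genes did, and the median was 0.00. In 28 genes every combination tumor was above every Control tumor, against 18.8% of all genes, and in 29 every one was below, against 28.5%. The split again followed GC content: 28 rose and 0 fell among the 39 genes at or below the median, and 29 fell and 1 rose among the 38 above it. With the trend removed the counts were 27 lower and 27 higher, against 15.5% and 16.3% of all genes. The correlation with GC content across the genes was then still -0.636, so these counts are not free of GC content. When all 28 libraries shared a single fit, 27 fell and 31 rose, against 19.8% and 20.7% of all genes. The median in that fit was 0.102, so the place of the median relative to 0 depended on the scaling.

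RPL26 (ENSG00000161970.12, hg38 chr17:8377516-8383250, minus strand) rose most, at 1619, 1814, 1744 and 1630 CPM in combination tumors, all above the Control values given before (0.81 ± 0.11, adjusted p = 5.24e-06). RPL34, a large subunit protein, rose from 350.1, 367.5 and 391.3 CPM to 635.4, 696.6, 734.2 and 647 CPM (0.78 ± 0.11, adjusted p = 1.07e-05). RPL21 rose by 0.75 ± 0.11 (adjusted p = 2.37e-05) with the pseudogene limit given above. All 4 combination tumors exceeded all 3 Control tumors in these genes. RPS6, the small subunit protein phosphorylated by S6 kinase, rose by 0.48 ± 0.09 (adjusted p = 0.000295). RPL5 rose by 0.39 ± 0.08 (adjusted p = 0.000414) and RPL11 by 0.32 ± 0.09 (adjusted p = 0.00497). The largest falls were those of RPS9, at 64.2, 80.44, 79.55 and 74.04 CPM (-2.04 ± 0.14, adjusted p = 1.54e-08), RPS15 (-1.88 ± 0.19, adjusted p = 2.98e-07) and RPL8 (-1.81 ± 0.14, adjusted p = 2.72e-08). All 3 stalk proteins and all 3 at the peptidyl transferase center fell, and of the 9 at the exit tunnel 2 fell and 5 rose.

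Against Palbociclib tumors, 40 genes fell and 20 rose in combination tumors, where 27.5% and 20.1% of all genes did, with a median of -0.20. RPS9 (-2.16 ± 0.13, adjusted p = 2.79e-09), RPS15 (-2.004 ± 0.18, adjusted p = 6.19e-08) and RPL8 (-1.88 ± 0.13, adjusted p = 7.26e-09) fell most. RPS24, a small subunit protein, rose most, by 0.49 ± 0.09 (adjusted p = 8.82e-05). With the trend in GC content removed, 40 fell and 5 rose, where 11.8% and 11.9% of all genes did. The correlation with GC content across the genes was then still -0.585. This comparison and the preceding ones share the combination or the Control tumors, so they are not independent of each other.

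Against Telaglenastat tumors the ribosomal protein genes of combination tumors differed in a single direction. Of the 77 genes 66 rose, where 8.93% of all genes did, and 0 fell, where 9.89% of all genes did. All 77 differences were above 0, from 0.04 for RPSA to 0.56 for RPL29, with a median of 0.36 against 0.02 over all genes. Of the large subunit 40 of 46 rose and of the small subunit 26 of 31. In 62 genes every combination tumor was above every Telaglenastat tumor, against 10.2% of all genes.

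RPL29 (ENSG00000162244.10, hg38 chr3:51993522-51995942, minus strand), a large subunit protein that also binds heparin at the cell surface, was at 333.2, 327.3, 263.2 and 298.7 CPM in Telaglenastat and at 426.9, 478.4, 467.6 and 428.3 CPM in combination tumors. The groups did not overlap (0.56 ± 0.08, adjusted p = 7.49e-05). RPL36 (0.56 ± 0.18, adjusted p = 0.0348) and RPL37A (0.54 ± 0.09, adjusted p = 0.000216), both of the large subunit, followed. RPL36 was at 40.57, 45.36, 35.71 and 43.55 CPM in Telaglenastat and at 43.84, 65.28, 67.91 and 64.76 CPM in combination tumors, so 1 combination tumor lay within the Telaglenastat range. All 3 stalk proteins rose, RPLP0 by 0.31 ± 0.09, RPLP1 by 0.44 ± 0.11 and RPLP2 by 0.54 ± 0.15. RPL5 (0.23 ± 0.07, adjusted p = 0.0315) and RPL11 (0.50 ± 0.08, adjusted p = 0.000168) rose too. RPSA was at 1114, 1265, 1209 and 1231 CPM and at 1238, 1375, 1213 and 1121 CPM, a difference of 0.04 ± 0.07 that did not pass (adjusted p = 0.718). Others not past the threshold included RPL4, RPL7, RPL10, RPL15, RPL22, RPL35, RPS3A, RPS15 and RPS28.

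Before the GC correction, this shift was about the same at low and high GC content: 35 of 39 genes at or below the median and 31 of 38 above it rose, each set with a median of 0.36. The Spearman correlation with GC content was 0.16 across the genes and 0.34 over all genes, and with coding length it was -0.55 across the genes. With the trend removed 45 rose and 0 fell, where 7.46% and 7.07% of all genes did, the median was 0.25, and the correlation with GC content across the genes was -0.58. The count was 36 when all 28 libraries shared a single fit, against 4.52% of all genes. The stroma and the epithelial marker sums were higher in all 4 combination tumors than in any Telaglenastat tumor, and their part in this difference was not tested. The share of reads on mitochondrial transcripts was 13.2 to 14.81% in combination tumors, 6.226 to 9.071% in Telaglenastat tumors and 6.78 to 7.22% in Control tumors, and its part was not tested.

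**Figure D4:**
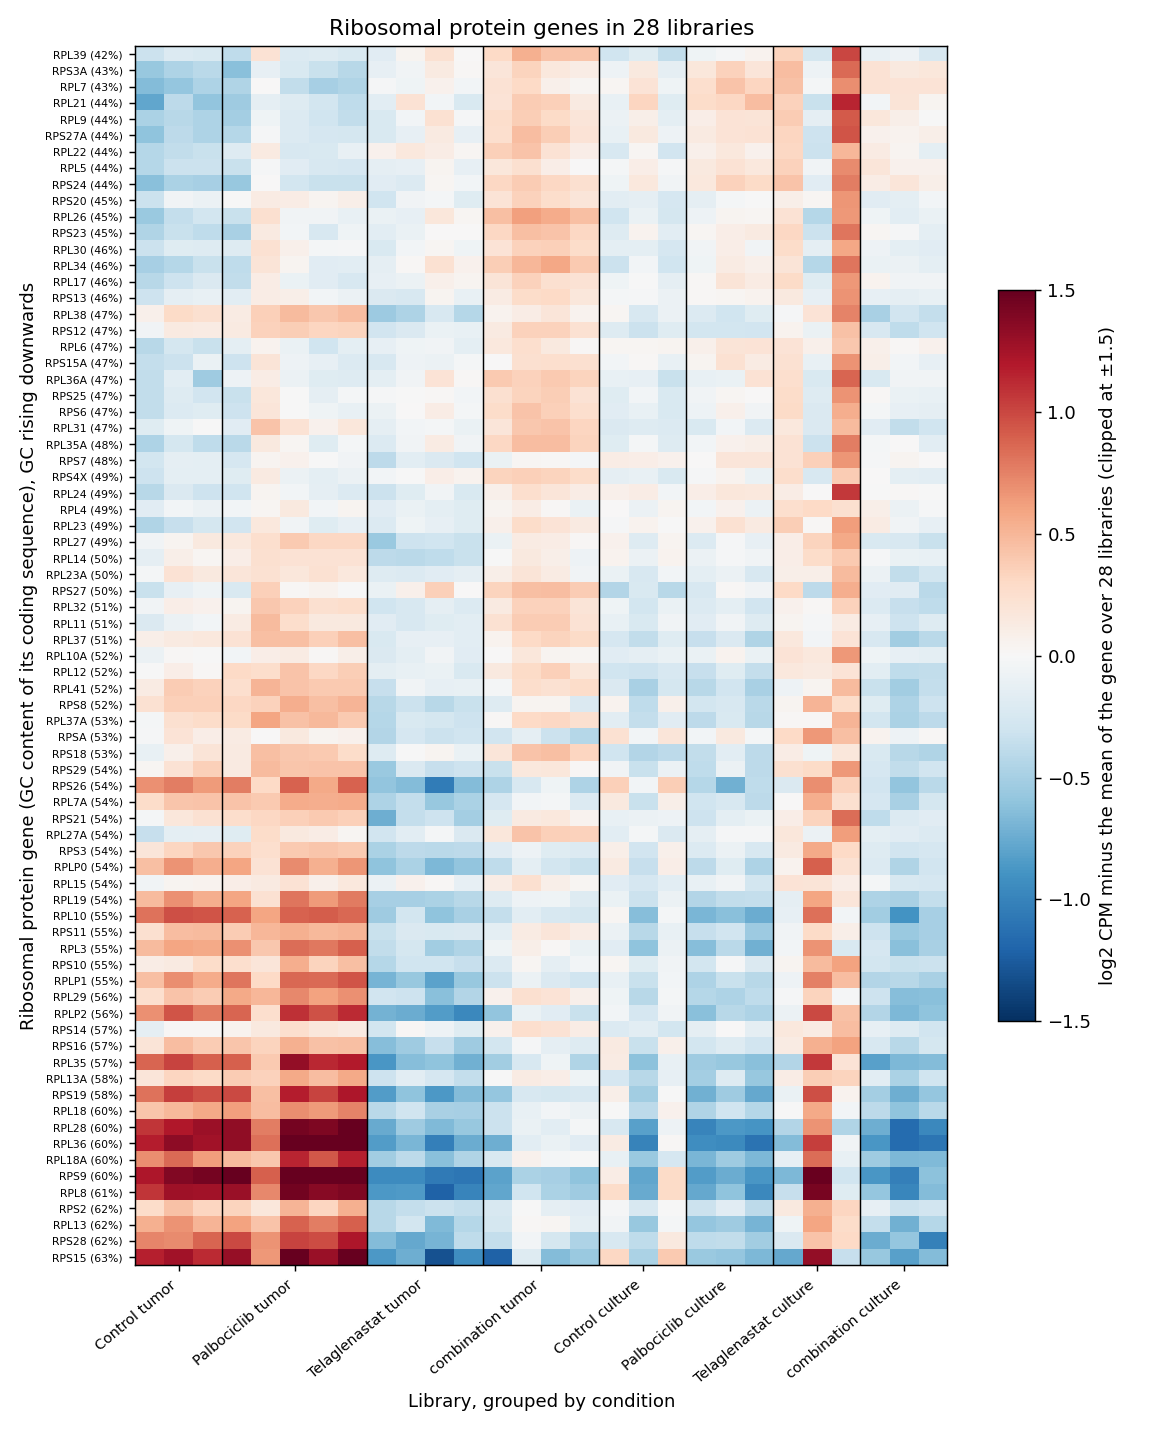
Log2 CPM of ribosomal protein genes (rows, ordered by GC content of the coding sequence from the lowest at the top) in each of 28 libraries (columns, grouped by condition), as the difference from the gene's mean over the libraries, with colors clipped at 1.5. The lower rows are red in Control and Palbociclib tumors and blue in Telaglenastat tumors, and the upper rows are red in combination tumors and in Telaglenastat culture replicate 3.

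Other translation genes were counted from lists for comparison. The counts and changes in this paragraph are without the correction for GC content. Over all genes the log2 fold change in Telaglenastat tumors had a Spearman correlation of -0.721 with GC content. In Telaglenastat tumors against Control, where 28.5% of all genes fell and 22.6% rose, 6 of 21 other TOP mRNAs fell and 4 rose, with EEF1D (-1.60) and FAU (-1.18) among those that changed most, so their shares were near those of all genes. Of 25 ribosome biogenesis genes 10 fell and 10 rose, led by BOP1 (-2.75). Of 78 mitochondrial ribosomal protein genes, 34 fell and 17 rose. Of 12 genes of the pathway that controls TOP mRNAs, 6 fell and 4 rose, with EIF4EBP1, the translation repressor, lowest at -2.43. In the combination against Telaglenastat, where 8.93% of all genes rose and 9.89% fell, 8 of the 21 other TOP mRNAs (38.1%) rose and 1 fell. There 2 of the 25 biogenesis genes (8%) rose and 0 fell, and 5 of the 78 mitochondrial ribosomal protein genes (6.41%) rose and 1 fell, shares of rises no higher than that of all genes. FAU rose by 0.45, and MYC, a transcription factor that drives ribosomal genes, rose by 0.44. In Palbociclib tumors none of the TOP, biogenesis or pathway genes was called, while 2 mitochondrial ribosomal protein genes fell. Of 8 paralogs of ribosomal protein genes 5 had enough counts to be tested. RPL22L1 rose by 0.27 in Telaglenastat and by 0.70 in combination tumors.

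In the cultures, grown without drug, no ribosomal protein gene was called in any of 5 comparisons, in which edgeR called 0% of all genes in 4 and 0.00715% in the combination against Control. The medians were nevertheless not all near 0. Telaglenastat lines differed from Control lines by a median of 0.41, with all 77 genes above 0 and 48 at an unadjusted p under 0.05, against 3.49% of all genes. In 26 genes every Telaglenastat line was above every Control line, against 4.23% of all genes. DESeq2 called 12 genes in this comparison, all higher, against 0.259% of the genes to which it gave an adjusted p. RPL12 was at 805.7, 799.4 and 838.5 CPM in Control and 1112, 1093 and 1141 CPM in Telaglenastat lines. The lines did not overlap, and the difference was 0.44 ± 0.10, which did not pass (adjusted p = 0.711).

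Combination lines lay below Telaglenastat lines in all 77 genes, with a median of -0.46. At an unadjusted p under 0.05 there were 59 lower genes, against 8.95% of all genes, and in 49 every combination line was below every Telaglenastat line, against 6.22%. RPL27, a large subunit protein, was at 441.3, 520.7 and 610.8 CPM in Telaglenastat and at 351.3, 350.2 and 326.8 CPM in combination lines (-0.60 ± 0.12, adjusted p = 0.27). The count called lower was 44 with DESeq2, against 0.954% of the genes to which it gave an adjusted p. It was 43 with edgeR once Telaglenastat culture replicate 1 was left out, against 4.12% of all genes, while it stayed at 0 without replicate 2 or 3. Palbociclib lines against Control (median -0.05), combination lines against Control (-0.09) and combination against Palbociclib lines (-0.06) had 6, 7 and 0 lower genes at an unadjusted p under 0.05, against 2.9%, 3.27% and 0.586% of all genes.

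The Telaglenastat lines differed among themselves. GC slopes of cultures were taken from each gene's mean over all cultures, so they cannot be set beside those of tumors. The GC slope of the ribosomal protein genes was 0.923 per 10 points in replicate 2, -0.11 in replicate 1 and -0.232 in replicate 3, against -0.128 to 0.377 in Control lines and -0.289 to -0.115 in the other cultures. RPS9 stood at 69.99, 312.2 and 91.31 CPM in these 3 lines, and RPL21 at 352.8, 220.2 and 614.6 CPM. The share of reads was highest in replicate 3, at 7.452%.

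Control tumors and Control cultures were compared to show how growth in mice or in dishes set the starting levels. Of the 77 genes 36 were higher in tumors and 10 lower, where 23.1% and 22.8% of all 15466 genes tested were, with a median of 0.21. RPL28 was at 303.2, 331.8 and 350.5 CPM in tumors and at 121.8, 82.16 and 136.5 CPM in cultures (1.53 ± 0.22, adjusted p = 2.23e-06), without overlap. RPL36 (1.47 ± 0.29, adjusted p = 0.000153) and RPS9 (1.41 ± 0.32, adjusted p = 0.000847) were also higher in tumors. RPL7 (-0.62 ± 0.13, adjusted p = 0.000406), RPL21 (-0.61 ± 0.21, adjusted p = 0.0194) and RPS24 (-0.55 ± 0.15, adjusted p = 0.00321) were lower. The difference rose with GC content (Spearman 0.88 across the genes, 0.46 over all genes), and 33 of the 38 genes above the median GC content were higher. With the trend removed 36 were higher and 3 lower, where 17.4% and 23.6% of all genes were. The correlation with GC content across the genes was then still 0.448. Growth in a host cannot be told apart from any batch that separated the tumor from the culture libraries. Without Control culture replicate 2 the counts were 25 higher and 5 lower, against 16.2% and 18.8% of all genes. The GC slope of the ribosomal protein genes was -0.128 per 10 points in this library and 0.327 and 0.377 in the other Control cultures.

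Whether the difference from Control was unlike in tumors and in the lines was tested as an interaction in a single fit of the 28 libraries. The lines were grown without drug. An effect in cultures therefore means a difference between lines by the past treatment of their tumors. For Telaglenastat, 49 of the 77 genes had a lower effect in tumors than in cultures, where 18.5% of all genes did, and 0 had a higher one, where 15.6% of all genes did. The median difference of effects was -0.64. RPS9 (-2.92 ± 0.45, adjusted p = 9.91e-05), RPL8 (-2.70 ± 0.41, adjusted p = 9.6e-05) and RPL36 (-2.58 ± 0.40, adjusted p = 9.91e-05) differed most. With the trend in GC content removed 46 were lower and 0 higher, where 5.39% and 5.06% of all genes were. The median was then -0.54, and the correlation with GC content across the genes was still -0.459. Among the 38 genes above the median GC content 37 were lower, and among the other 39 it was 12. Without Telaglenastat culture replicate 2 the count was 55, against 10.5% of all genes, and without replicate 3 it was 47, against 20.2%.

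For the combination, 4 genes had a higher effect in tumors, where 2.11% of all genes did, and 0 a lower one, where 0.795% of all genes did. These were RPL26 (0.80 ± 0.22, adjusted p = 0.0442), RPS24 (0.73 ± 0.20, adjusted p = 0.0442), RPL11 (0.49 ± 0.12, adjusted p = 0.0291) and RPL6 (0.46, adjusted p = 0.0368). RPL11 was at 838.4, 740.4 and 802.6 CPM in combination lines and at 846.4, 784 and 884 CPM in Control lines, so the lines overlapped while the tumors did not. With the trend removed 0 were called, against 1.51% and 1.14% of all genes, and the correlation with GC content across the genes was -0.653. The count without this correction moved with single libraries. It was 32 (24 higher and 8 lower) without Telaglenastat culture replicate 2, against 4.25% and 3.54% of all genes, and 22 higher without replicate 3, against 4.59%. Neither of these 2 libraries is in a group of this comparison, but both enter the filter, the scaling and the shared spread. It was 6 without Telaglenastat culture replicate 1 or Palbociclib tumor replicate 2, 4 without Palbociclib tumor replicate 1, Telaglenastat tumor replicate 3 or combination tumor replicate 4, and 0 to 2 without any other library. For Palbociclib 0 genes were called, where 0.356% of all genes were higher and 1.03% lower. The median was 0.24, 23 genes were higher at an unadjusted p under 0.05, against 6.67% of all genes, and DESeq2 called 1 higher, against 0.914% of the genes to which it gave an adjusted p.

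**Figure D5:**
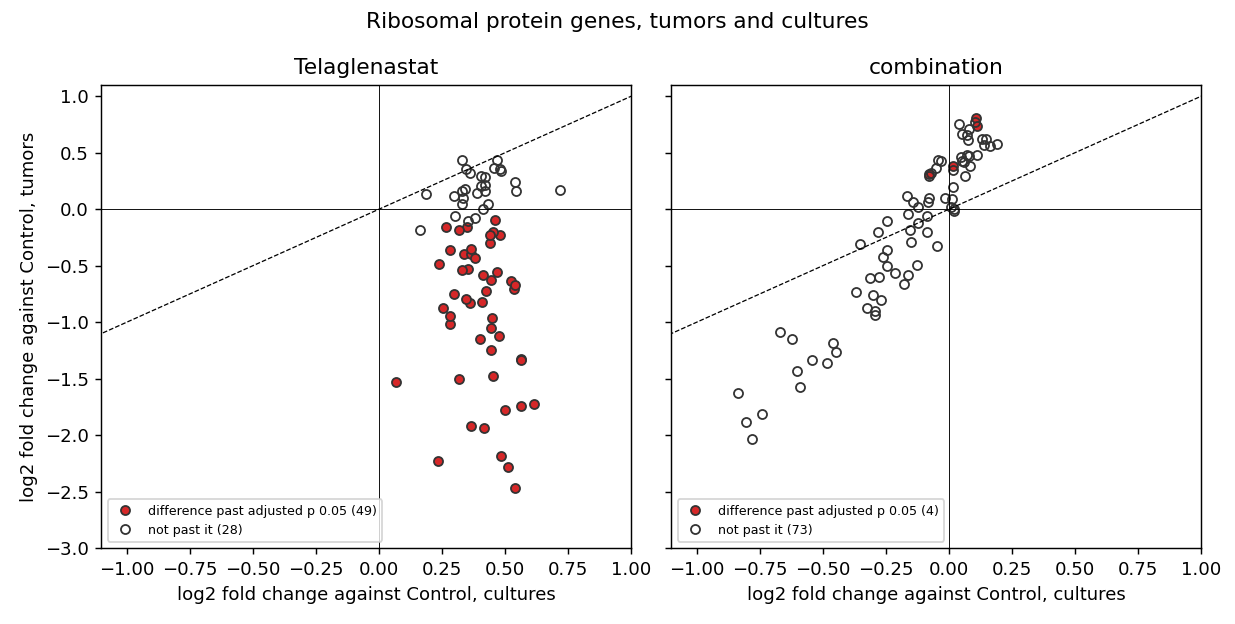
Log2 fold change against Control in tumors (vertical axis) and in cultures (horizontal axis) of the 77 genes, for Telaglenastat (left) and the combination (right), each from the fit of its own tissue, with filled points where the difference of effects passed an adjusted p of 0.05 in the fit of all 28 libraries and a dashed line where both effects are equal. Cultures were grown without drug and are named by the treatment of their source tumors. Under Telaglenastat all points lie to the right of 0 in cultures while 49 filled points lie below the line. Under the combination 4 points are filled.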

How the data were processed

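RNA-seq was made from 16 residual HCT116 xenograft tumors and 12 cell lines from such tumors. Per the labels, poly(A) RNA was selected and libraries were prepared with an NEBNext kit. Reads were single-end. The submitters' processing notes name CASAVA 1.8, STAR and hg38. The strand setting, the annotation release and the treatment of reads with several matches are not given in the sources used here. The authors deposited raw, unnormalized counts of reads per gene, 1 column a library, in rows that pair an Ensembl ID with a symbol. Groups and replicate numbers came from the sample titles. No pair of libraries within a group was a duplicate (lowest chi-square per degree of freedom 4.03).

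The members and lists were chosen with earlier results of these data known. Of 58278 rows, 57940 matched GENCODE 29 by ID, for position, coding length and GC content, and rows without a match held 0.0287% of the counts. Counts were filtered with filterByExpr (minimum count 10), scaled with TMM and tested with edgeR 4.0.16 (quasi-likelihood) in R 4.3.3 over all genes of the tumors (14848), the cultures (13985) or all 28 libraries (15466, for Control tumors against Control cultures and the interactions), with Benjamini-Hochberg adjustment and a threshold of 0.05. The tests were first tried on simulated data. For the GC correction, a smooth trend of log2 counts in coding GC content and coding length (splines with 5 degrees of freedom, robust fit in MASS 7.3.60.0.1, fitted without the ribosomal protein genes) was removed from each library through offsets. GC content was first taken from a transcript of median length, and the coding sequence was chosen in its place after the data were seen. CPM levels of ribosomal protein genes use TMM over the 28 libraries, and those of markers use the library total alone. Log2 fold changes come from the fits above, each scaled over its own libraries. They can therefore differ from the ratio of the CPM values given. DESeq2 1.42.0, other scalings and filters, a replicate block, other sets of samples and leaving out each library were the alternatives. Genes named are the largest 3 rises and falls a comparison among those called, members of stated roles, and those said to be chosen later. Some genes that were tested and counted are not reported here by name. Depth ran from 6273834 to 13815675 counts. Intervals cover counting error only.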

Additional observations from a re-analysis of the deposited data

Results flagged for a closer look

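Single libraries stood apart from their group in 10 of 126 groups of 4 or 5 tumors (a gene in a condition) for the genes named above, where chance flags about 1 in 20, or about 6.3. In 6 of them the library was Palbociclib tumor replicate 2. It read 1107 CPM for RPL10 (others 1342 to 1384), 524.2 for RPL8 (782.4 to 873.2) and 292.1 for RPLP1 (414.6 to 457.1), below the other 4 tumors. It read 703.1 CPM for RPL39 (463.6 to 528.1), 2362 for RPL7 (1657 to 1817) and 1547 for RPS4X (1244 to 1331), above them. The GC slope of the ribosomal protein genes was 0.103 per 10 points in this library and 0.595 to 0.688 in the other 4, and 13.64% of its reads lay on mitochondrial transcripts. The part of either in these values was not tested.

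Combination tumor replicate 1 was low in RPL36, at 43.84 CPM against 64.76 to 67.91, and in RPS19, at 146.5 against 182.3 to 185. Telaglenastat tumor replicate 3 was high in RPL5, at 1538 CPM against 1364 to 1376, and low in RPS26, at 52.63 against 68.93 to 71.79.

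Effects differed between tumors and cultures by an interaction test in edgeR for 49 ribosomal protein genes under Telaglenastat, led by RPS9 (-2.92), RPL8 (-2.70) and RPL36 (-2.58), all lower in tumors. Under the combination 4 genes differed, with RPL26 at 0.80, RPS24 at 0.73 and RPL11 at 0.49, all higher in tumors.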

How the results depend on the processing

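Of 4562 values of named genes under the alternatives (149 pairs of a gene and a comparison), 4259 kept direction and side of the threshold, 287 kept direction only and 16 reversed, of which 0 were among the 2852 values with 1 library left out. The cause of a change was not tested.

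The 5 genes called in Palbociclib tumors became 26 with DESeq2, 15 with the GC and length correction (20 with GC content from the transcript, an alternative added after seeing the data), 11 with DESeq2's size factors, 2 with scaling without ribosomal protein genes, 18 with a filter of at least 1 count in all, 9 with at least 10 counts in every library, 1 with only the groups compared and 2 in a single fit of 28 libraries. The combination against Telaglenastat in tumors gave 36 in the single fit, in place of 66. The median for Telaglenastat against Control tumors was -0.286 in the single fit, in place of -0.394. For the combination it was 0.102 in place of 0.000615 against Control, and -0.0978 in place of -0.203 against Palbociclib tumors. Against Palbociclib tumors 34 fell and 23 rose in the single fit, in place of 40 and 20. In cultures, where 0 were called, the filter of at least 1 count gave 7 calls in Palbociclib lines, 13 in Telaglenastat lines and 7 in combination lines against Control, and 46 in combination against Telaglenastat lines. DESeq2 gave 12 for Telaglenastat and 44 for the combination against Telaglenastat, and the single fit 4 and 46. The Palbociclib interaction (0) became 1 with DESeq2, 7 with the filter of at least 1 count, 1 with at least 10 and 1 with transcript GC content. The combination interaction (4) became 9 with DESeq2 (4 lower, 5 higher), 0 with the GC correction, 0 with DESeq2's size factors, 1 with scaling without ribosomal protein genes, 23 with the filter of at least 1 count (16 lower, 7 higher) and 1 with transcript GC content. That filter gave 5 lower and 39 higher in Control tumors against cultures.

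Leaving out 1 library gave 0 to 22 calls for Palbociclib tumors, 0 to 43 for combination against Telaglenastat cultures, 0 to 1 for the Palbociclib interaction and 0 to 32 for the combination interaction. It gave 50 to 59 for Telaglenastat, 57 to 60 for the combination against Control, 57 to 64 against Palbociclib and 47 to 73 against Telaglenastat tumors, 47 to 55 for the Telaglenastat interaction and 30 to 49 for Control tumors against cultures.

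Same-numbered tumors did not deviate together (correlations of -0.128 to 0.0896, 0 of 21 over 0.1). Of 18 same-numbered pairs of cultures 3 were over 0.1 (-0.423 to 0.14). These values gave no clear sign that the numbers pair the samples, but groups this small cannot exclude it. With the replicate block, Palbociclib tumors had 14 calls (12 with the GC correction as well) and the combination interaction 2 (0 with it).

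With the GC correction RPS14 went to 0.37 (0.38 with the block too, 0.326 by transcript) and RPL13A from -0.64 to 0.0519 (0.0754 with the block) in Telaglenastat tumors. RPL13A went to 0.19 (0.21) in the combination against Control and to 0.00837 against Palbociclib with the block and the correction. RPL5 went to -0.0548 (-0.0542) in the combination against Palbociclib, RPL41 to -0.114 (-0.115) in the combination against Telaglenastat, and RPS14 to 0.0713 (0.0778) in the Telaglenastat interaction. By transcript GC content RPL36A went to -0.0935 under Telaglenastat and RPS10 to 0.00696 under the combination.

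With protein-coding nuclear genes as the denominator the shares were higher in each group (7.19%, 8.05%, 5.8% and 7.36% in Control, Palbociclib, Telaglenastat and combination tumors), and the combination mean then lay above the Control mean.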

Other observations

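The readthrough row RPL17-C18orf32, which overlaps RPL17, held 424 to 615 counts in Control tumors. RPS10-NUDT3, which overlaps RPS10, held 437 to 607 counts there, and RPL36A-HNRNPH2, which overlaps RPL36A, held 0 to 19.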
